A study of Mus musculus with 10 samples.

Results

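Fibroblast growth factor (FGF) signaling was followed through 10 genes of its pathway, chosen by symbol from the 36066 genes of the expression table. They were the ligands Fgf4 and Fgf8, the receptors Fgfr1 and Fgfr2, the feedback inhibitors Spry2, Spry4 and Dusp6, and the transcription factors Etv4, Etv5 and Egr1. The rule was a list of symbols with no threshold on measured values, but the list was chosen with earlier results of these data known. All 10 were in the table and passed the filter on low values.

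FGF ligands bind receptor tyrosine kinases, which act through adaptors and RAS on the kinases RAF, MEK and ERK. Active ERK induces transcription factors such as Egr1 and the ETS family members Etv4 and Etv5, and it also induces its own inhibitors, the Sprouty proteins and the phosphatase Dusp6, so that their transcripts are widely read as signs of pathway activity. In mouse embryonic stem cells, FGF4 made by the cells themselves is known to push them out of naive pluripotency, and inhibition of MEK is used to hold them there. FGF2 is part of the medium that turns stem cells into epiblast-like cells, from which primordial germ cell-like cells (PGCLCs) are induced.

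RNA was sequenced from 5 groups of mouse cells with 2 libraries each. ESCs were female lines from fertilized embryos, and pESCs were parthenogenetic lines from chemically activated oocytes, which hold only maternal chromosomes. All were of C57BL6 background with an Actin-GFP transgene in the oocyte donors, and were derived on mitomycin-treated fibroblast feeders with LIF and the MEK inhibitor PD0325901. Established lines were then grown in medium with serum and LIF, still on feeders. Before induction of PGCLCs, the lines were kept for several passages in another medium, which held PD0325901 at a reduced concentration. The medium of the stem cells at the time of RNA harvest is not stated. ESC-PGCLCs and pESC-PGCLCs had passed through an epiblast-like stage with activin A and FGF2 and then 4 days as floating aggregates with the cytokines BMP4 (500 ng/ml), SCF (100 ng/ml), EGF (50 ng/ml) and LIF (1000 IU), and were sorted for CD61 and SSEA1. PGCs were primordial germ cells taken from female embryos and enriched with surface markers, and their labels give no embryonic day. EGF also acts through RAS and ERK, and sorting was described for PGCLCs and PGCs but not for stem cells, so differentiation, medium and sorting cannot be told apart in a comparison with stem cells.

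Values are TPM, a measure of transcript abundance that corrects for gene length and brings every library to a common total, so levels can be compared between genes. Recovered reads per library ran from 6779838 in an ESC-PGCLC library to 18572901 in an ESC library. The 9 germ cell markers summed to between 407 and 931 TPM in the 4 stem cell libraries and to between 5457 and 7900 TPM in the other 6, with Dazl and Dppa3 high. Pou5f1, a defining marker of both stem cells and early germ cells, had 7.49 to 23.5 TPM in stem cells, 2.88 and 2.98 TPM in pESC-PGCLCs, 3.14 and 1.63 TPM in PGCs, and 0.374 and 0 TPM in ESC-PGCLCs. The 8 pluripotency markers, Pou5f1 among them, did not share this order. In sum they had 1063 to 1616 TPM in stem cells, 192 and 222 TPM in ESC-PGCLCs, 139 and 156 TPM in pESC-PGCLCs, and 205 and 222 TPM in PGCs. The sorted groups also held transcripts used as markers of other cells. Which cells held them was not tested. The 8 haemoglobin and red cell genes summed to at most 4.58 TPM in stem cells, to 487 and 556 TPM in ESC-PGCLCs, to 2870 and 3398 TPM in pESC-PGCLCs, and to 1961 and 2147 TPM in PGCs. The 9 gonadal somatic markers summed to 3.93 to 4.85 TPM in stem cells, 19.2 to 23.3 TPM in ESC-PGCLCs, 43.3 to 49.1 TPM in pESC-PGCLCs and 83.0 to 90.2 TPM in PGCs. The 9 fibroblast markers summed to 0.28 to 0.57 TPM in stem cells, 4.04 to 4.43 TPM in ESC-PGCLCs, 9.20 to 11.5 TPM in pESC-PGCLCs and 10.4 to 12.0 TPM in PGCs. In such bulk samples fewer cells of a type and less RNA per cell cannot be told apart.

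The sequences just before the transcription start are shown for Fgf4, Spry2 and Dusp6. These are the ligand and feedback inhibitor genes of the 10 for which a sequence was searched, and their levels changed in different directions. They are the 250 bases before the RefSeq start (GRCm38.p6), read 5′ to 3′ on the strand of the gene, at chr7:144861136-144861385 on the plus strand for Fgf4, chr14:105896820-105897069 on the minus strand for Spry2 and chr10:99262981-99263230 on the plus strand for Dusp6. Capitals mark GGAA on either strand, the letters at the centre of sites that ETS factors such as Etv4 and Etv5 bind.
Fgf4 promoter: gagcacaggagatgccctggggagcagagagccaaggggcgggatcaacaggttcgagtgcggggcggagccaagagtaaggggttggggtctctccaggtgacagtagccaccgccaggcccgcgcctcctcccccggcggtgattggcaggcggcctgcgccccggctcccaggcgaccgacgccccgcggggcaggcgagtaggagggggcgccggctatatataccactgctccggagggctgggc
Spry2 promoter: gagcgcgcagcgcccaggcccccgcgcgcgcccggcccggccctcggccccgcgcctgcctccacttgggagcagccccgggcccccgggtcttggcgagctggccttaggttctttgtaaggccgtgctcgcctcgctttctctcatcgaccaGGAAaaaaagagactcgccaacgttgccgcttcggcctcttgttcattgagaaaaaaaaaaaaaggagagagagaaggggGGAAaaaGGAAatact
Dusp6 promoter: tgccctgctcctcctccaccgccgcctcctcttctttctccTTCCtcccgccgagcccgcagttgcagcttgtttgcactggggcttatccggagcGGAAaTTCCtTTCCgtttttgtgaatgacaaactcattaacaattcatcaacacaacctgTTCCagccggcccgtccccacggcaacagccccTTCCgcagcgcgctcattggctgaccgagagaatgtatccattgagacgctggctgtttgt

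The 4 letters GGAA occurred 6 times before Dusp6, 3 times before Spry2 and 0 times before Fgf4, and they occurred at least once in 93.5% of 32851 windows of the same length. The Fgf4 window held 2 GC boxes (GGGCGG, either strand) and 1 CCAAT box, and Dusp6 held 1 CCAAT box. GC boxes were found in 32.7% of all windows and CCAAT boxes in 33.9%. RefSeq windows were searched for 5 of the 10 genes, the others being Fgfr2 and Etv5, with 6 windows in all. Spry4 and Egr1, on chromosome 18, were left out of the search, and Fgf8, Fgfr1 and Etv4 had no window. The motif results therefore say nothing about these genes. None of the 6 windows held the longer ETS core CCGGAA, the EGR core GTGGGCG, the AP-1 site TGANTCA, the CRE half-site TGACGT or a CArG box on either strand. These were present in 12.0%, 7.02%, 6.75%, 6.47% and 1.47% of all windows. CCGGAA contains GGAA, so these 2 searches overlap.

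**Figure D1:**
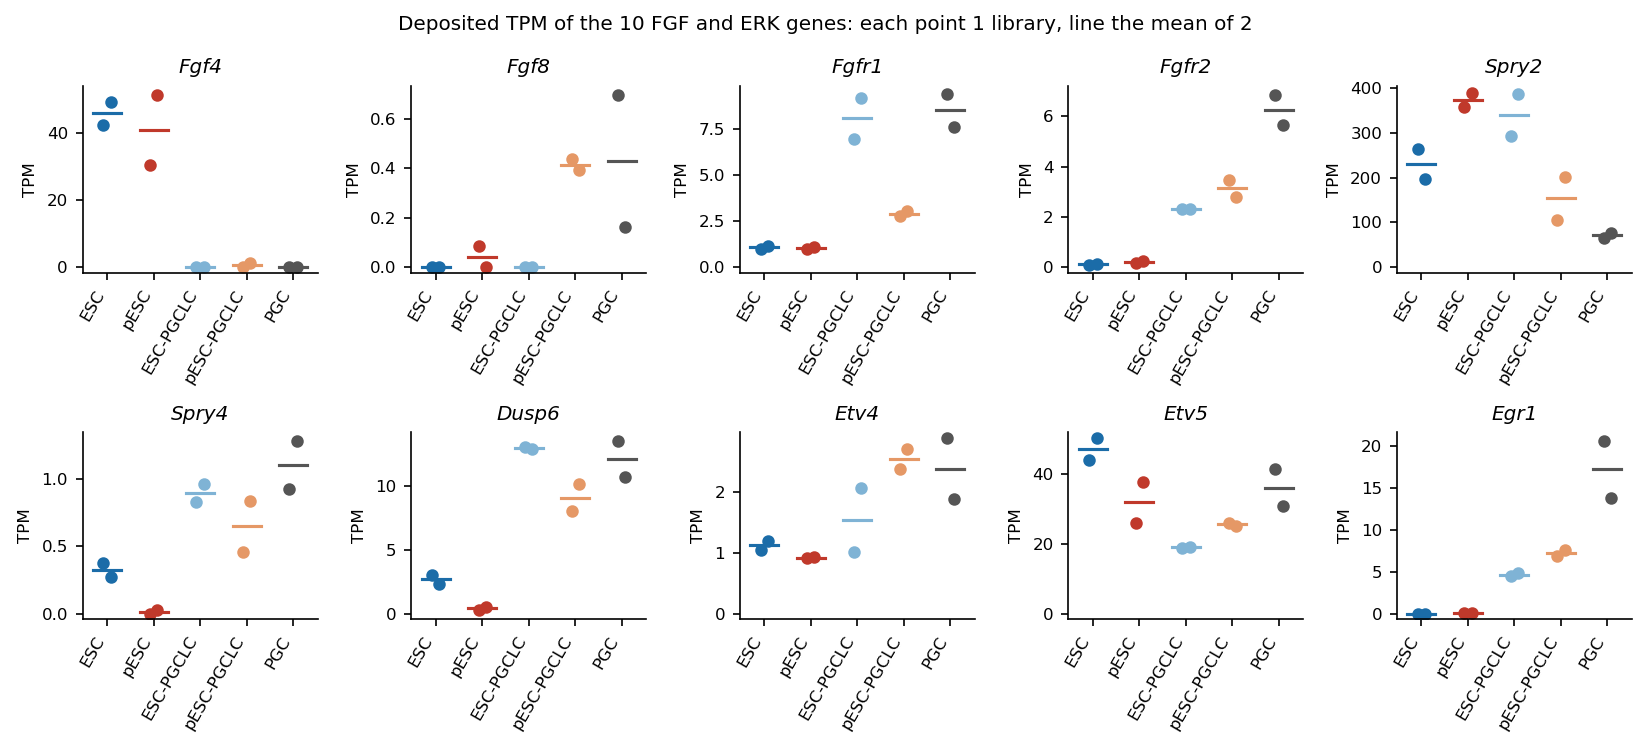
TPM of the 10 genes, with 1 panel per gene, groups on the x axis, each point 1 library and each line the mean of 2 libraries. Fgf4 was high only in the stem cell libraries, and Egr1 and Fgfr2 were highest in PGCs. Spry2 had its highest mean in pESCs, which overlapped ESC-PGCLCs.

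The ligand gene Fgf4 (chr7:144847367-144865243, plus strand) was the member with the widest difference. Fgf4 had 42.3 and 49.2 TPM in ESCs and 30.3 and 51.3 TPM in pESCs, against 0.197 and 0.154 TPM in ESC-PGCLCs, 0.110 and 1.20 TPM in pESC-PGCLCs and 0.0491 and 0.104 TPM in PGCs. All 4 stem cell libraries were thus far above the other 6, and ESCs and pESCs overlapped. The 6 sorted libraries held 1 to 36 reads of Fgf4, with 36 in pESC-PGCLC replicate 2 and at most 3 in each of the others. On the log2(TPM + 1) scale Fgf4 fell by 5.31 (SE 0.35) from ESCs to ESC-PGCLCs by limma, with a Benjamini-Hochberg adjusted p of 1.429e-05. From pESCs to pESC-PGCLCs it fell by 4.70 (SE 0.35, adjusted p = 3.843e-05). This scale understates the change of genes near 0. By recovered reads scaled to depth, Fgf4 was 260.5 times higher in ESCs than in ESC-PGCLCs (3113 against 5 reads, exact 95% counting interval 111.5 to 803) and 59.8 times higher in pESCs than in pESC-PGCLCs (2271 against 39 reads, interval 43.6 to 84.3). Both intervals cover counting error only. Of the 39 reads 36 lay in pESC-PGCLC replicate 2 (1.20 TPM, against 0.110 TPM in replicate 1), a spread between libraries that the interval leaves out. The fall of Fgf4 did not differ between origins beyond the spread (interaction 0.61, SE 0.49, adjusted p = 0.434).

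Fgf8 (chr19:45736798-45742915, minus strand), a ligand of gastrulation and of the growing tail bud, was near the limit of detection. It had 19 reads in all 10 libraries, of which 10 lay in pESC-PGCLCs at 0.435 and 0.394 TPM, 8 in PGCs at 0.697 and 0.164 TPM, and 1 in pESC replicate 1 at 0.0843 TPM. ESCs and ESC-PGCLCs had 0 reads. A count of 0 allows up to 3 reads, which in the shallow ESC-PGCLC libraries is 0.467 and 0.546 TPM, above both pESC-PGCLC values. On the log2(TPM + 1) scale Fgf8 was 0.50 higher in pESC-PGCLCs than in ESC-PGCLCs (SE 0.16, adjusted p = 0.0585), which did not pass. With a pseudocount of 0.1 it was 2.36 with an adjusted p of 0.0211, which is a call. A pseudocount of 0.1 also gave calls for Fgf8 from pESCs to pESC-PGCLCs (1.92, adjusted p = 0.0252, and 2.34 with an adjusted p of 0.0326 by limma-voom on recovered reads) and from ESC-PGCLCs to PGCs (2.20, adjusted p = 0.0259).

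The other ligand genes did not share a pattern. Of 20 further FGF genes listed as ligands, all were in the table and 15 were tested. Fgf13, an intracellular FGF homolog that does not act through the receptors, rose from 0.378 and 0.126 TPM in ESCs to 6.49 and 7.03 TPM in ESC-PGCLCs (log2 difference 2.64, SE 0.18, adjusted p = 1.544e-05). In pESC-PGCLCs Fgf13 had 5.76 and 6.27 TPM against 0.170 and 0.0287 TPM in pESCs (log2 difference 2.68, SE 0.18, adjusted p = 2.307e-05). Fgf10 fell with differentiation from both origins, by 1.57 (SE 0.18, adjusted p = 0.000251) and 1.10 (SE 0.18, adjusted p = 0.00183) on the log2 scale. Among other genes of this list with a group mean of at least 1 TPM, Fgf2 reached 3.41 ± 0.415 TPM (SD, n = 2) in pESC-PGCLCs and Fgf22 reached 3.92 ± 0.382 TPM in PGCs. Fgf17 reached 2.44 ± 0.276 TPM in ESCs. Fgf11, an intracellular homolog like Fgf13, reached 3.17 ± 0.683 TPM in PGCs. The highest group mean on the list was 7.90 TPM, for the intracellular Fgf13 in PGCs. Apart from Fgf13 it was 3.92 TPM, for Fgf22 in PGCs. Both were below every stem cell library of Fgf4.

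Both receptor genes were low in stem cells and higher in PGCLCs and PGCs. Fgfr1 (chr8:25513654-25575718, plus strand), the main FGF4 receptor of the early epiblast, had 0.989 and 1.18 TPM in ESCs, 1.014 and 1.10 TPM in pESCs, 6.98 and 9.18 TPM in ESC-PGCLCs, 2.76 and 3.03 TPM in pESC-PGCLCs and 9.41 and 7.61 TPM in PGCs. ESCs overlapped pESCs and PGCs overlapped ESC-PGCLCs, and pESC-PGCLCs lay between the 2 pairs without overlap. Fgfr1 rose in ESC-PGCLCs by 2.12 on the log2 scale (SE 0.19, adjusted p = 5.936e-05). In pESC-PGCLCs it was higher than in pESCs by 0.92 (SE 0.19, adjusted p = 0.00467), which is under the 2-fold minimum for a call. Fgfr1 was lower in pESC-PGCLCs than in ESC-PGCLCs by a log2 difference of -1.21 (SE 0.19, adjusted p = 0.00294), a 2.31-fold difference on this scale. Its difference from PGCs is given with the other PGC comparisons.

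The response of Fgfr1 to differentiation differed between the origins. The interaction, which subtracts the ESC to ESC-PGCLC difference from the pESC to pESC-PGCLC difference, was -1.19 (SE 0.26, adjusted p = 0.0152). Without ESC replicate 1 it was -1.13 with an adjusted p of 0.0639, and without pESC-PGCLC replicate 1 it was -1.14 with an adjusted p of 0.0560. Of the exons of Fgfr1, 1.66% overlap the gene Gm16159 on the other strand, which had at most 0.363 TPM in any library.

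Fgfr2 (chr7:130162451-133123350, minus strand), a receptor with epithelial and mesenchymal splice forms, was near 0 in stem cells. It had 0.0946 and 0.138 TPM in ESCs, 0.165 and 0.257 TPM in pESCs, 2.32 and 2.33 TPM in ESC-PGCLCs, 3.48 and 2.79 TPM in pESC-PGCLCs and 6.86 and 5.64 TPM in PGCs. No 2 groups overlapped, and PGCs were the highest. Fgfr2 rose in ESC-PGCLCs by 1.58 (SE 0.18, adjusted p = 0.000191) and in pESC-PGCLCs by 1.77 (SE 0.18, adjusted p = 0.000136) on the log2 scale. The difference of 0.31 between the 2 kinds of PGCLC did not pass the test (SE 0.18, adjusted p = 0.262). Transcripts of Fgfr2 share 1.92% of their 100-base stretches with Ctbp2 on the same strand, which had 6.95 to 11.8 TPM in stem cells and 4.46 to 6.71 TPM in PGCLCs. The gonadal somatic markers followed the same order as Fgfr2 among the sorted groups (at most 23.3 TPM in ESC-PGCLCs, 49.1 TPM in pESC-PGCLCs and 90.2 TPM in PGCs in sum), and their part in these values was not tested.

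Among 5 further receptors and co-receptors, 4 were tested. Fgfr3 rose in both kinds of PGCLC, from 0.0546 ± 0.0558 TPM (SD, n = 2) in ESCs to 3.37 ± 0.592 TPM in ESC-PGCLCs and from 0.0160 ± 0.0002 TPM in pESCs to 3.91 ± 0.937 TPM in pESC-PGCLCs. The log2 differences of Fgfr3 were 2.05 (SE 0.23, adjusted p = 0.000209) and 2.26 (SE 0.23, adjusted p = 0.00016). Fgfrl1, a receptor without a kinase domain, was called from pESCs to pESC-PGCLCs (log2 difference 1.32, SE 0.32, adjusted p = 0.0101), not from ESCs to ESC-PGCLCs, and the interaction was not called. Klb, a co-receptor for endocrine FGFs, and Fgfr4 had group means under 1 TPM in all 5 groups.

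**Figure D2:**
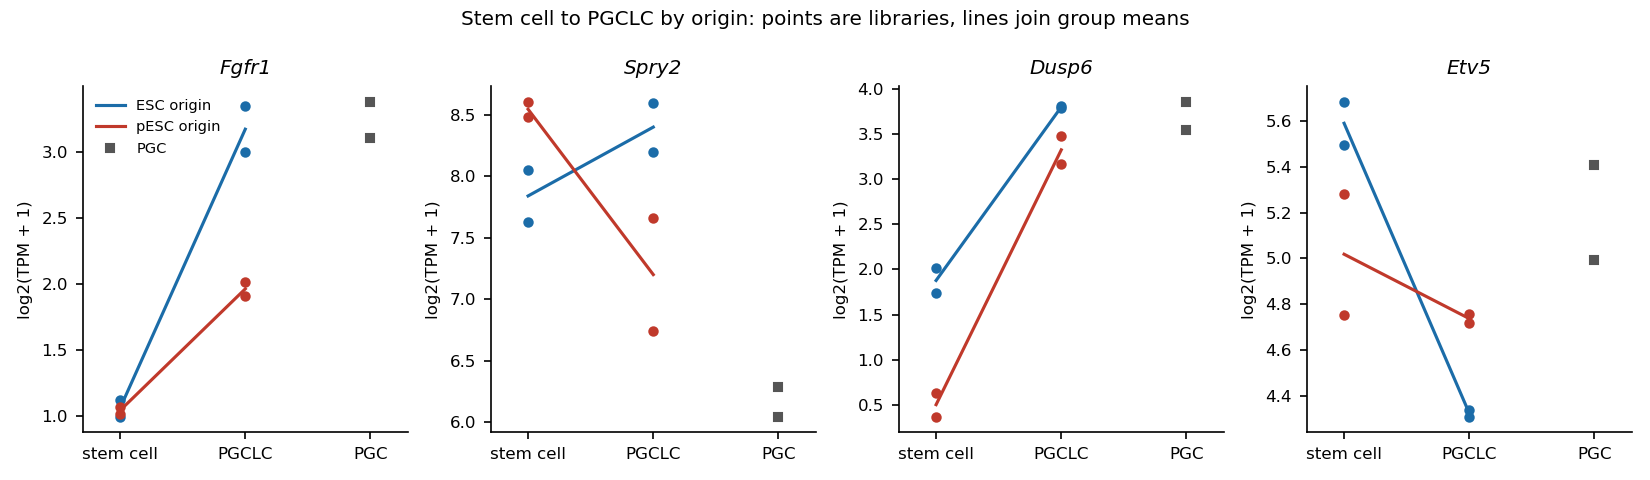
Levels as log2(TPM + 1) of Fgfr1, Spry2, Dusp6 and Etv5 in stem cells, PGCLCs and PGCs, with blue for ESC origin, red for pESC origin and grey squares for PGCs. Points are libraries and lines join the group means. The lines of Spry2 cross, Fgfr1 rises less from pESCs, and the lines of Dusp6 start apart and end close.

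The feedback inhibitor genes differed widely in level. Spry2 (chr14:105891947-105896819, minus strand), which blocks the pathway between receptor and RAF, was the most abundant member, with 264 and 197 TPM in ESCs, 357 and 389 TPM in pESCs, 293 and 387 TPM in ESC-PGCLCs, 106 and 201 TPM in pESC-PGCLCs and 65.1 and 77.0 TPM in PGCs. PGCs were below all other libraries. pESCs overlapped ESC-PGCLCs, and ESCs overlapped pESC-PGCLCs. Spry2 fell from pESCs to pESC-PGCLCs by 1.34 on the log2 scale (SE 0.30, adjusted p = 0.0078). From ESCs to ESC-PGCLCs the difference was 0.56 (SE 0.30, adjusted p = 0.177), which did not pass. Spry2 was lower in pESC-PGCLCs than in ESC-PGCLCs by a log2 difference of -1.20 (SE 0.30, adjusted p = 0.0247), and the difference between pESCs and ESCs of 0.70 did not pass (SE 0.30, adjusted p = 0.280).

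The interaction for Spry2 was -1.90 (SE 0.43, adjusted p = 0.0163). Without ESC replicate 2 it was -1.69 (adjusted p = 0.0723) and without ESC-PGCLC replicate 2 it was -1.70 (adjusted p = 0.0640). The 2 pESC-PGCLC libraries lay far apart, at 106 and 201 TPM, and without replicate 1 the fall from pESCs was 0.88 (adjusted p = 0.0410), under the 2-fold minimum. That fall also lost its call when the variance came from these 4 libraries alone (adjusted p = 0.0754). Without pESC-PGCLC replicate 1 the difference from ESC-PGCLCs was -0.74, under the 2-fold minimum. That difference also lost its call when the variance came from the compared groups alone (adjusted p = 0.159). It was lost as well without ESC-PGCLC replicate 1 (-1.40) and without ESC-PGCLC replicate 2 (-1.0).

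Dusp6 (chr10:99263231-99267489, plus strand), a phosphatase that acts on ERK in the cytoplasm, followed another order. It had 3.05 and 2.34 TPM in ESCs, 0.291 and 0.553 TPM in pESCs, 13.0 and 12.9 TPM in ESC-PGCLCs, 8.02 and 10.1 TPM in pESC-PGCLCs and 13.5 and 10.7 TPM in PGCs. The only overlap was between PGCs and ESC-PGCLCs, and pESCs were the lowest. Dusp6 rose in ESC-PGCLCs by 1.92 (SE 0.20, adjusted p = 0.00013) and in pESC-PGCLCs by 2.83 (SE 0.20, adjusted p = 3.217e-05). It was the 1 member called between the stem cells, lower in pESCs by a log2 difference of -1.38 (SE 0.20, adjusted p = 0.0327). Recovered reads were 175 in ESCs and 23 in pESCs, a ratio at equal depth of 6.29 with an exact 95% counting interval of 4.06 to 10.2. The call of Dusp6 was lost without ESC replicate 1 (-1.24, adjusted p = 0.233), without ESC replicate 2 (-1.52, adjusted p = 0.0890), without pESC replicate 1 (-1.24, adjusted p = 0.110) and when the variance came from these 4 libraries alone (adjusted p = 0.238). Its interaction of 0.90 (SE 0.28, adjusted p = 0.0546) did not pass. It was called with a pseudocount of 0.1 (1.94, adjusted p = 0.0135), with limma-voom on recovered reads (1.91, adjusted p = 0.0198) and without pESC replicate 2 (1.035, adjusted p = 0.0442).

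Spry4, another Sprouty gene, lies at chr18:38586247-38601415 on the minus strand and was rare. It had 0.379 and 0.275 TPM in ESCs, 0 and 0.0252 TPM in pESCs, 0.825 and 0.964 TPM in ESC-PGCLCs, 0.461 and 0.834 TPM in pESC-PGCLCs and 0.923 and 1.28 TPM in PGCs. pESCs were the lowest group, and the 3 sorted groups overlapped in neighbouring pairs above both kinds of stem cell. ESCs had 17 and 16 reads of Spry4 and pESCs had 0 and 1, a ratio at equal depth of 27.3 with an exact 95% counting interval of 4.57 to 1111. On the log2(TPM + 1) scale this was a difference of -0.39 (SE 0.16, adjusted p = 0.252), which did not pass. In a limma-voom fit on recovered reads, added after the data were seen, the difference was -3.89 with an adjusted p of 0.0179. From pESCs to pESC-PGCLCs Spry4 was higher by 0.69 (SE 0.16, adjusted p = 0.00839) and from ESCs to ESC-PGCLCs by 0.51 (SE 0.16, adjusted p = 0.0297), both under 2-fold on this scale. By recovered reads the first of these was 56 against 1, a ratio at equal depth of 54.5 with an exact 95% counting interval of 9.39 to 2192. Both were called with a pseudocount of 0.1 (2.69 from pESCs, adjusted p = 0.00106, and 1.23 from ESCs, adjusted p = 0.0367) and with limma-voom (4.66, adjusted p = 7.287e-05, and 1.399, adjusted p = 0.0337).

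In a wider list of regulators of the pathway, most of them inhibitors, more genes rose than fell. The list was not limited to feedback inhibitors. Rasa1 and Nf1 act on RAS in general and Flrt3 is not a known inhibitor, so these counts do not measure feedback alone. Of 19 further genes, 18 were in the table and 17 were tested, of which 10 rose and 2 fell from ESCs to ESC-PGCLCs and 10 rose and 1 fell from pESCs to pESC-PGCLCs. Over all genes tested 15.3% rose and 14.5% fell from ESCs, and 20.8% rose and 6.80% fell from pESCs. From pESCs the listed genes became 5 and 2 with each library centred on the median of widely expressed genes, and 6 and 1 with quantile normalization. Dusp9, another ERK phosphatase, rose from 0.469 ± 0.211 TPM (SD, n = 2) to 29.7 ± 0.382 TPM in ESC-PGCLCs (log2 difference 4.39, SE 0.15, adjusted p = 1.476e-06). In pESC-PGCLCs Dusp9 rose by 3.98 (SE 0.15, adjusted p = 3.525e-06). Rasa1, which switches RAS off, rose by 2.997 (SE 0.19, adjusted p = 1.378e-05) and 3.27 (SE 0.19, adjusted p = 1.514e-05), and Dusp5 by 2.77 (SE 0.37, adjusted p = 0.000493) and 3.34 (SE 0.37, adjusted p = 0.000232). Dusp14 went the other way, from 54.6 TPM in ESCs to 3.38 TPM in ESC-PGCLCs and from 33.2 TPM in pESCs to 11.1 TPM in pESC-PGCLCs. Its log2 differences were -3.66 (SE 0.20, adjusted p = 7.229e-06) and -1.496 (SE 0.20, adjusted p = 0.000621). The median log2 difference of the 17 tested genes was 1.11 from ESCs and 1.21 from pESCs, beside 0.05 and 0.22 over all genes tested.

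**Figure D3:**
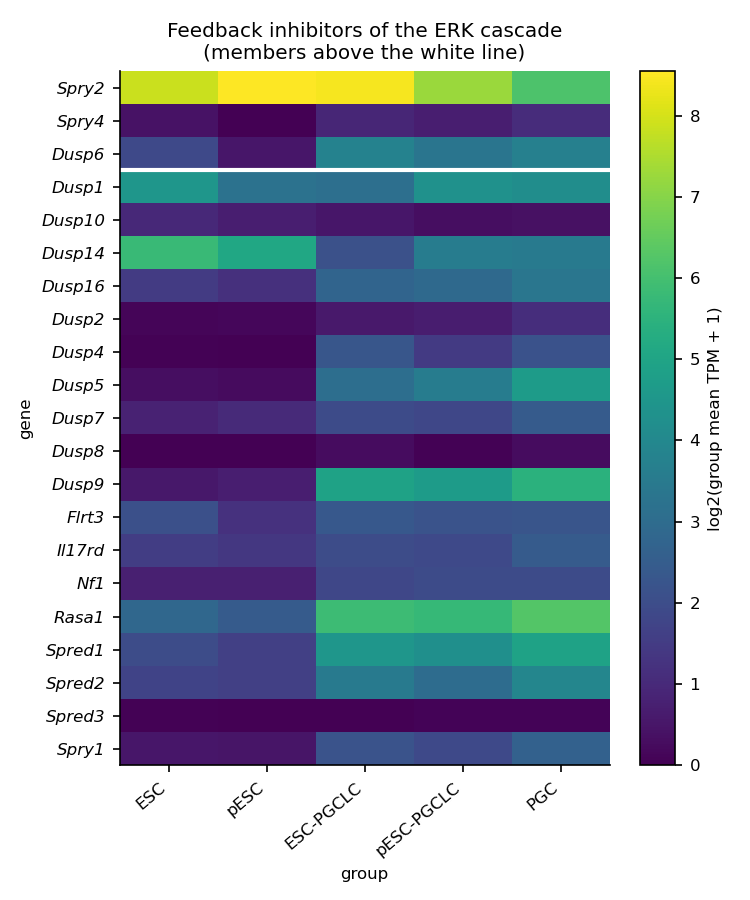
Group means as log2(TPM + 1), with the feedback inhibitors Spry2, Spry4 and Dusp6 above the white line and 18 further listed regulators below it. Spry2 is bright in all 5 groups, Dusp14 is brightest in the stem cells, and Dusp9, Rasa1, Spred1 and Dusp5 are bright in the PGCLC and PGC columns.

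Among the transcription factors, Etv5 (chr16:22381309-22439719, minus strand), an ETS factor needed for renewal of spermatogonial stem cells, was the most abundant. It had 44.1 and 50.4 TPM in ESCs, 26.0 and 37.9 TPM in pESCs, 18.8 and 19.2 TPM in ESC-PGCLCs, 26.0 and 25.3 TPM in pESC-PGCLCs and 41.5 and 30.9 TPM in PGCs. ESCs were above all other libraries and ESC-PGCLCs below all others, while PGCs, pESCs and pESC-PGCLCs overlapped as neighbours in that order. Etv5 fell from ESCs to ESC-PGCLCs by 1.27 (SE 0.21, adjusted p = 0.00153). From pESCs to pESC-PGCLCs the difference was -0.28 (SE 0.21, adjusted p = 0.323), and the interaction of 0.99 (SE 0.30, adjusted p = 0.048) passed the test of the difference but not the 2-fold minimum. Transcripts of Etv5 share 15.2% of their 100-base stretches with Gm4798, so reads could be split between them, and Gm4798 had at most 0.268 TPM.

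Etv4 (chr11:101769742-101785371, minus strand), its close relative, was low in all groups. It had 1.05 and 1.19 TPM in ESCs, 0.916 and 0.929 TPM in pESCs, 1.02 and 2.06 TPM in ESC-PGCLCs, 2.38 and 2.70 TPM in pESC-PGCLCs and 2.88 and 1.89 TPM in PGCs. Neighbouring groups overlapped except ESCs and pESCs. From pESCs to pESC-PGCLCs Etv4 was higher by 0.88 (SE 0.24, adjusted p = 0.0189), under 2-fold, and from ESCs to ESC-PGCLCs by 0.23 (SE 0.24, adjusted p = 0.485). The 2 ETS factors thus differed in level and in order, and over the 10 libraries their Pearson r on the log2 scale was -0.14, with stem cells and sorted cells as the points.

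Egr1, an early response zinc finger factor, lies at chr18:34859823-34864984 on the plus strand. It had 0.0242 and 0.0188 TPM in ESCs and 0.0507 and 0.0515 TPM in pESCs, which were 1 or 2 reads per library. It had 4.45 and 4.88 TPM in ESC-PGCLCs, 6.83 and 7.63 TPM in pESC-PGCLCs and 20.6 and 13.8 TPM in PGCs. The sorted groups overlapped neither each other nor the stem cells, while ESCs and pESCs held too few reads to be ordered. Egr1 rose in ESC-PGCLCs by 2.47 (SE 0.20, adjusted p = 4.203e-05) and in pESC-PGCLCs by 2.97 (SE 0.20, adjusted p = 2.895e-05) on the log2(TPM + 1) scale. By recovered reads scaled to depth it was 219.9 times higher in ESC-PGCLCs than in ESCs (184 against 2 reads, exact 95% counting interval 60.03 to 1829.7) and 142 times higher in pESC-PGCLCs than in pESCs (583 against 4 reads, interval 55.1 to 523). The difference between the 2 kinds of PGCLC of 0.54 did not pass (SE 0.20, adjusted p = 0.0987).

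Egr1 is also known to be induced when tissue is dissociated, so 12 early response genes of dissociation were read beside it. They summed to 73.2 and 84.1 TPM in ESCs, 38.5 and 45.8 TPM in pESCs, 66.0 and 74.3 TPM in ESC-PGCLCs, 108 and 113 TPM in pESC-PGCLCs and 147 and 201 TPM in PGCs. Within the list Fos rose from 0.597 TPM in ESCs to 25.3 TPM in ESC-PGCLCs (log2 difference 4.05, SE 0.21, adjusted p = 5.213e-06) and from 0.0978 TPM in pESCs to 46.9 TPM in pESC-PGCLCs (log2 difference 5.45, SE 0.21, adjusted p = 3.777e-06). Junb went the other way, by -3.73 (SE 0.25, adjusted p = 1.544e-05) and -1.68 (SE 0.25, adjusted p = 0.00094). Fos, Fosb, Jun, Junb, Ier2 and Dusp1 of the list are also among the ERK-responsive genes or regulators counted here. The list is thus not separate from the pathway. The part of sorting in the level of Egr1 was not tested.

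**Figure D4:**
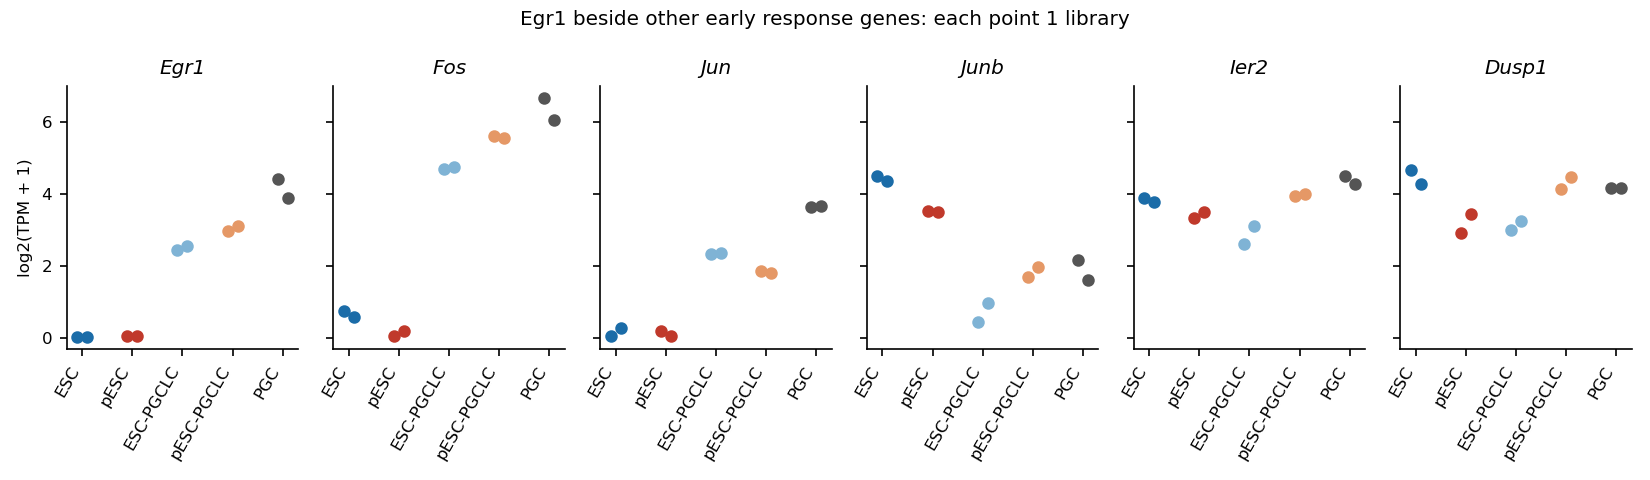
Levels as log2(TPM + 1) of Egr1 and of the early response genes Fos, Jun, Junb, Ier2 and Dusp1, with groups on the x axis and each point 1 library. Egr1, Fos and Jun are near 0 in all 4 stem cell libraries and highest in PGCs, and Junb is highest in ESCs.

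Counted over the members, differentiation from ESCs to ESC-PGCLCs gave 4 called higher (Fgfr1, Fgfr2, Dusp6 and Egr1) and 2 called lower (Fgf4 and Etv5). Of all 27259 genes tested, 29.8% were called, 15.3% higher and 14.5% lower. From pESCs to pESC-PGCLCs 3 members were called higher (Fgfr2, Dusp6 and Egr1) and 2 lower (Fgf4 and Spry2), beside 27.6% of all genes, 20.8% higher and 6.80% lower. With each library centred on the median of 9024 widely expressed genes, the split of all called genes from pESCs turned from 5681 higher and 1854 lower to 2280 higher and 5010 lower, and with quantile normalization it was 3293 to 3033. Such centring moved the median log2 difference of all genes from 0.22 to -0.51, and the 5 called members kept their direction and their call under both. The median log2 difference of the members was 0.54 from ESCs and 0.79 from pESCs, beside 0.05 and 0.22 over all genes.

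**Figure D5:**
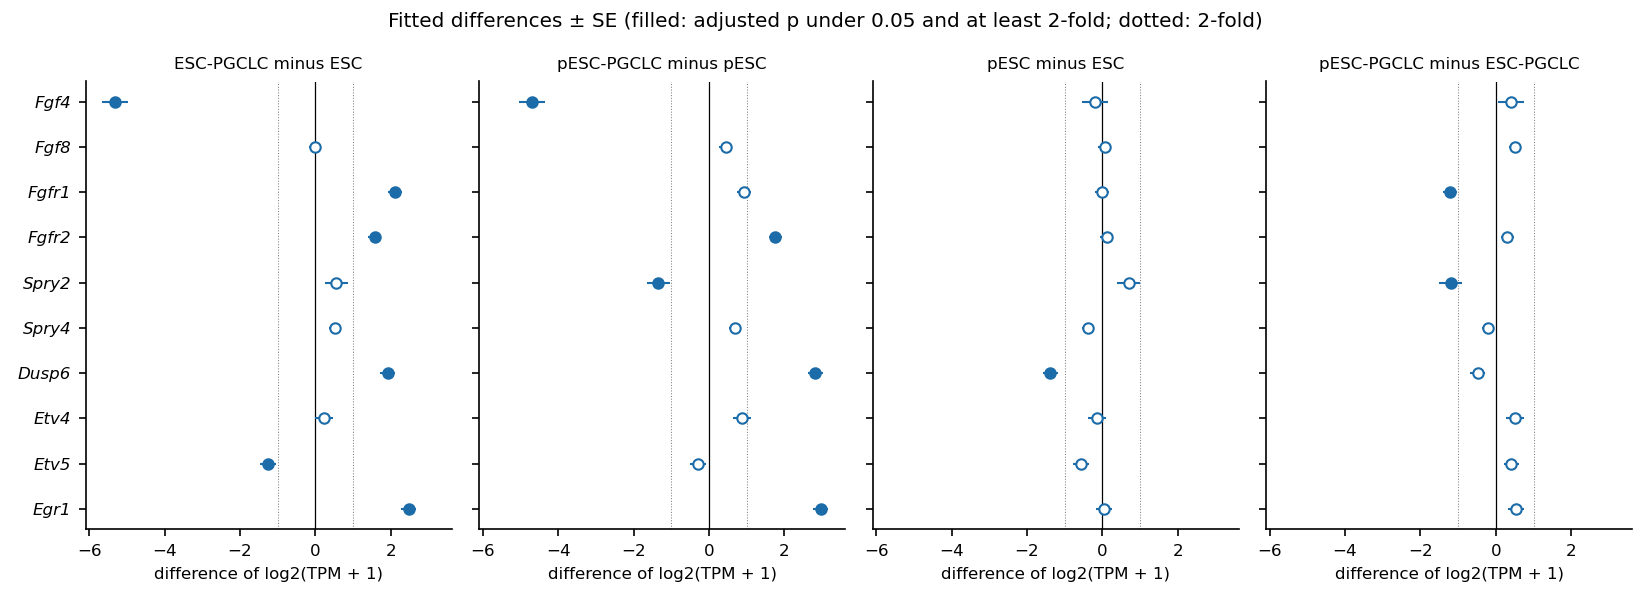
Differences of log2(TPM + 1) for the 10 genes in 4 comparisons, with points for the fitted differences, bars for their SE and filled points for calls. Fgf4 lies at -5.31 and -4.70 in the differentiation panels, and Dusp6 at -1.38 is the 1 filled point between pESCs and ESCs.

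Between origins the members gave few calls. Dusp6 was the 1 member lower in pESCs, and 0 were higher, beside 0.781% of all genes called, 0.165% higher and 0.616% lower. The split of these calls was 45 higher to 168 lower and turned to 161 to 30 with centring and to 65 to 57 with quantile normalization, as the median of all genes moved from -0.06 to 0.28 with centring. Between pESC-PGCLCs and ESC-PGCLCs Fgfr1 and Spry2 were lower and 0 members were higher, beside 13.4% of all genes, 10.3% higher and 3.08% lower. That split was 2812 to 839, and 1460 to 1891 with centring and 1723 to 1330 with quantile normalization (median of all genes 0.12, and -0.29 with centring). The interaction was called for Fgfr1 and Spry2, both negative, beside 19.1% of all genes, 15.5% positive and 3.53% negative. Its split was 4236 to 961, 1727 to 4062 with centring and 2228 to 1643 with quantile normalization (median 0.21, and -0.54 with centring). Dusp6, Fgfr1 and Spry2 kept these directions and calls under both scalings. The labels do not say how many cell lines stand behind each origin, so origin and cell line cannot be told apart here.

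PGCs were then compared with each kind of PGCLC. Against ESC-PGCLCs, PGCs were higher in Egr1 (log2 difference 1.66, SE 0.20, adjusted p = 0.00193) and Fgfr2 (1.12, SE 0.18, adjusted p = 0.00384) and lower in Spry2 (-2.23, SE 0.30, adjusted p = 0.00252), beside 13.8% of all genes called, 12.0% higher and 1.88% lower. Fgfr2 lost its call with centring (0.51), with quantile normalization (0.50) and without PGC replicate 1 (1.00). The split of all calls went from 3260 higher and 512 lower to 712 and 2003 with centring and to 927 and 979 with quantile normalization, and the median of all genes from 0.27 to -0.34 with centring. Etv5 was higher in PGCs by 0.88 (SE 0.21, adjusted p = 0.0169), under 2-fold. When only these 4 libraries gave the variance, 0 of the 3 calls remained, with adjusted p of 0.0595 to 0.0651.

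Against pESC-PGCLCs, PGCs were higher in Fgfr1 (log2 difference 1.28, SE 0.19, adjusted p = 0.0162) and Egr1 (1.12, SE 0.20, adjusted p = 0.0263) and 0 members were called lower, beside 3.67% of all genes called, 2.07% higher and 1.60% lower. Fgfr1 lost its call without pESC-PGCLC replicate 1 (1.23), without pESC-PGCLC replicate 2 (1.33), without PGC replicate 1 (1.15) and with quantile normalization (0.98). Egr1 lost its call when the same libraries were left out (1.05, 1.19 and 0.85) and with centring (0.92) or quantile normalization (0.92). The split of all calls was 564 to 436, 293 to 821 with centring and 297 to 593 with quantile normalization (median 0.11, and -0.09 with centring). Spry2 was lower by 1.04 on the log2 scale (SE 0.30, adjusted p = 0.0702) and did not pass. It was called lower with centring (-1.23, adjusted p = 0.0352), with the filter at 1 TPM (-1.04, adjusted p = 0.0488) and with limma-voom (-1.07, adjusted p = 0.0164). Both comparisons share the PGC libraries, so they are not independent of each other.

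The rest of the pathway was counted from lists of 82 further genes, of which 81 were in the table and 73 were tested. From ESCs to ESC-PGCLCs 25 rose and 8 fell, and from pESCs to pESC-PGCLCs 30 rose and 3 fell, which became 15 and 11 with centring and 20 and 5 with quantile normalization. In each origin 45.2% of these genes were called, beside 29.8% of all genes from ESCs and 27.6% from pESCs. Of 19 relay genes from the adaptors to ERK, 7 rose and 3 fell from ESCs, and 11 rose and 0 fell from pESCs, the latter becoming 6 and 3 with centring, as the split of all genes from pESCs also turned. Sos2, an exchange factor that loads RAS, rose by 2.94 from ESCs (SE 0.20, adjusted p = 1.715e-05), while the adaptor gene Gab1 fell by 2.27 (SE 0.29, adjusted p = 0.000361) and Nras by 1.83 (SE 0.18, adjusted p = 9.242e-05). Of 18 tested ERK-responsive transcription factors and targets, 6 rose and 1 fell from ESCs and 4 rose and 1 fell from pESCs, the latter becoming 2 and 1 with centring. The share called was 38.9% from ESCs, beside 29.8% of all genes. From pESCs it was 27.8%, near the 27.6% of all genes. For the relay genes the shares called were 52.6% and 57.9%.

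Between origins the wider pathway gave 1 call in the stem cells, the phosphatase gene Dusp1, lower in pESCs (-1.29, SE 0.23, adjusted p = 0.0488), a call that was lost with centring (-0.95), with quantile normalization (-0.88), with no filter, with the compared groups alone, with the replicate block, and without ESC replicate 1, ESC replicate 2 or pESC replicate 1. In pESC-PGCLCs 6 genes were higher and 0 lower than in ESC-PGCLCs, Dusp14 by 1.46 (SE 0.20, adjusted p = 0.00179), Gab1 by 1.21 (SE 0.29, adjusted p = 0.0186), Dusp1 by 1.18 (SE 0.23, adjusted p = 0.00852), Junb by 1.13 (SE 0.25, adjusted p = 0.0137) and Ier2 by 1.12 (SE 0.19, adjusted p = 0.00442), with Map2k2 as the other. These 6 were 8.22% of the tested genes, under the 10.3% of all genes called higher, and the count was 3 without ESC-PGCLC replicate 1. With centring or with quantile normalization 1 was higher and 3 were lower. The interaction was positive for 13 genes and negative for 0, or 17.8% of the tested genes beside 15.5% positive over all genes, a share near the background. It was led by Dusp1 at 2.47 (SE 0.33, adjusted p = 0.00171). With centring it was positive for 4 and negative for 14, and without ESC replicate 1 the count called was 8. Against ESC-PGCLCs 16 genes were higher and 0 lower in PGCs (21.9%, beside 12.0% higher over all genes), led by Fos at 1.64 (SE 0.21, adjusted p = 0.00204), and with centring 1 was higher and 1 lower. The count was 7 without PGC replicate 1 and 0 with the compared groups alone. Against pESC-PGCLCs 7 were higher and 0 lower (9.59%, beside 2.07% higher over all genes), led by Jun at 1.82 (SE 0.17, adjusted p = 0.00704), and with centring 1 was higher. That count was 0 without pESC-PGCLC replicate 2, 0 with the compared groups alone, and 1 without pESC-PGCLC replicate 1 or without PGC replicate 1.

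The members' patterns over the 10 libraries were compared as Pearson r of log2(TPM + 1), as a description in which the split between stem cells and sorted cells sets most of the likeness. Fgfr2 and Egr1 were the most alike of the 45 pairs (r = 0.996), followed by Spry4 and Dusp6 (0.946). Fgf4 and Egr1 were the most opposed (-0.943). Among 14839 genes averaging 1 TPM or more, those most like each member were Gm11427, Oas1g and C330018A13Rik for Fgf4, Slc30a5, Ep300 and Txndc11 for Fgfr1, Glis3, Egr1 and Nacc2 for Fgfr2, and Dnmt3a, Osbpl6 and Sap130 for Egr1, all at r of at least 0.990. For Dusp6 they were Snhg14, Dbf4 and Krcc1 (0.987 to 0.991), for Etv5 Arl6ip1, Rnaseh1 and Aars (0.972 to 0.981) and for Spry4 Naa50, Agtpbp1 and Emd (0.969 to 0.972). Etv4 was nearest to Gm23455, Lat and Diexf (0.963 to 0.978). Fgf8, on few reads, was nearest to Kctd13, Gm11635 and Gm44166 (0.963 to 0.977). Spry2 had the loosest neighbours, Gm43078, Gm12999 and Rpl26 (0.901 to 0.922).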

How the data were processed

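The authors aligned reads to the mouse genome (mm10) with Hisat2 and assigned them to genes with Feature-counts. The deposited TPM values, 36066 genes in 10 libraries, have the same sum in each library. How TPM was made from the counts is not given in the sources used here, and library preparation is described differently in the study's methods and in the labels. The submitters' processing notes also name Bowtie2, RSEM, DESeq2 and R 3.4.2 without roles. The members and the gene lists were chosen with earlier results of these data known.

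Reads were recovered as TPM times exon length (GENCODE M21) times a factor per library, and 95.1% to 95.4% of values above 0 came out whole within 0.05. Counting intervals and floors of 3 reads cover counting error only. Values were fitted as log2(TPM + 1) with limma 3.58.1 in R 4.3.3, with a mean for each of 5 groups and variances that follow the mean (5 residual and 2.81 prior degrees of freedom), over 27259 genes that reached 0.1 TPM in 2 or more libraries. P-values were adjusted by Benjamini-Hochberg over all tested genes, and calls needed an adjusted p under 0.05 with a 2-fold or larger difference. Values of ± are SD over 2 libraries. With 2 libraries against 2, an exact two-sided permutation test cannot go below 0.333. Replicates are separate samples by their labels, and p-values measure the spread between them. The labels do not say how many cell lines the replicates of an origin came from, so the p-values may not cover the spread between lines. The fit was tested on simulated data.

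Of the genes outside the 10, those named are up to 5 called genes with the largest rise and up to 5 with the largest fall in each comparison at 1 TPM or more in the higher group, ligand genes of at least 1 TPM, and the 3 genes most like each member. Further names, such as Fgfr3, Fgfr4, Klb, Fgfrl1, Spred1 and Pou5f1, were chosen after their values were seen. Promoter sequences are from RefSeq (GRCm38.p6). Alternatives were no filter, a higher filter (1 TPM), a smaller pseudocount (0.1), the compared groups alone, quantile normalization, centring, the replicate block, no fold minimum, leaving out each library, and, added after seeing the data, limma-voom on recovered reads. Python 3.11.15, pandas 2.3.3, scipy and matplotlib 3.10.9 made tables and figures.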

Additional observations from a re-analysis of the deposited data

Results flagged for a closer look

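A test of the difference itself, the interaction of origin and differentiation, passed an adjusted p of 0.05 in limma for 3 members. The value was -1.19 on the log2 scale for Fgfr1, -1.90 for Spry2 and 0.99 for Etv5, the last under the 2-fold minimum. Fgfr1 rose less from pESCs to pESC-PGCLCs than from ESCs to ESC-PGCLCs, Spry2 fell from pESCs with no such fall from ESCs, and the fall of Etv5 from ESCs was not matched from pESCs. Groups of 2 libraries were too small for a test of single outlying libraries.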

How the results depend on the processing

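All 6 member calls from ESCs to ESC-PGCLCs held under every alternative run, with 6 or 7 members called. From pESCs to pESC-PGCLCs the count was 9 with a pseudocount of 0.1, 9 with limma-voom on recovered reads and 8 with no fold change minimum, against 5, and leaving out 1 library gave 4 to 5. Between pESCs and ESCs it was 0 with the compared groups alone, 2 with voom and 0 to 1 on leaving out a library, against 1. Between the PGCLCs it was 1 with the compared groups alone and 1 to 2 on leaving out a library, against 2. The interaction gave 4 with a pseudocount of 0.1, 4 with voom and 1 to 4 on leaving out a library, against 2. For PGCs against ESC-PGCLCs it was 0 with the compared groups alone, against 3. For PGCs against pESC-PGCLCs it was 1 with a pseudocount of 0.1, 0 with the compared groups alone, 0 with quantile normalization and 0 to 2 on leaving out a library, against 2. The compared groups alone give fewer residual degrees of freedom; the cause of the other changes was not tested.

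Replicate numbers recur across groups, but deviations of same-numbered libraries correlated between -0.094 and 0.347 (median 0.062, 10 group pairs), so they were not taken as pairs. With the replicate block the call of Dusp6 between pESCs and ESCs was lost (0 members called, adjusted p = 0.0642), and no other member count moved by over 1.5 times.

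Reversed directions concerned only differences that were not called at the reported settings. Between pESCs and ESCs these were Fgf4 (0.10 with quantile normalization, 0.13 with centring, -0.57 to 0.17 on leaving out a library), Fgfr1 (0.087 with quantile normalization, 0.32 with centring, 0.088 with voom, -0.082 to 0.047 on leaving out a library) and Etv4 (0.19 with centring). Between PGCLCs they were Fgf4 (-0.082 to 0.903 on leaving out a library) and Fgfr2 (-0.10 with centring), from ESCs to ESC-PGCLCs Etv4 (-0.072 to 0.529 on leaving out a library), and from pESCs to pESC-PGCLCs Fgf8 (-0.29) and Spry4 (-0.037), both with centring. In the interaction, centring gave Fgf4 -0.13, Fgf8 -0.30, Fgfr2 -0.55, Spry4 -0.57, Etv4 -0.091 and Egr1 -0.25, while Fgfr2 was -0.11 with a pseudocount of 0.1, -0.17 with quantile normalization and -0.63 with voom, and Egr1 was -0.60 with voom. Between PGCs and ESC-PGCLCs, centring gave Fgf8 -0.12, Fgfr1 -0.54, Spry4 -0.46 and Etv4 -0.17, quantile normalization gave Fgfr1 -0.52, Spry4 -0.20 and Etv4 -0.053, voom gave Fgfr1 -0.046, and leaving out a library gave Fgfr1 -0.104 to 0.246 and Dusp6 -0.256 to 0.058. Between PGCs and pESC-PGCLCs, leaving out a library gave Fgf8 -0.281 to 0.263 and Etv4 -0.29 to 0.13.

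Counts of the wider pathway ranged, over the alternatives that kept all libraries, from 0 to 1 between pESCs and ESCs, 3 to 16 between PGCLCs, 32 to 50 from ESCs, 25 to 50 from pESCs, 6 to 18 for the interaction, 0 to 32 for PGCs against ESC-PGCLCs and 0 to 13 against pESC-PGCLCs. Leaving out 1 library gave 0 to 2 between pESCs and ESCs, 3 to 7 between PGCLCs, 31 to 35 from ESCs, 29 to 34 from pESCs, 8 to 14 for the interaction, 7 to 18 for PGCs against ESC-PGCLCs and 0 to 10 against pESC-PGCLCs.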
